A study of Mus musculus with 2 samples.

Results

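The genes of the cytosolic ribosomal proteins were examined in a lentiviral knockdown of Etv4 in LPC-HRas cells, a mouse liver tumour line that the labels describe as hepatocellular carcinoma. Members were the records whose symbol begins Rpl or Rps and continues as a ribosomal protein number, together with Rplp0, Rplp1, Rplp2 and Rpsa. Symbols ending in -ps and the Rps6k kinases were left out. The rule found 89 of 55640 records, or of 55487 with a gene symbol. It used names only, no measured value. Of the 89, 77 were core members, the standard protein genes of the ribosome, with 46 in the large subunit (stalk proteins included) and 31 in the small subunit. The other 12 were 7 paralogues, such as Rps27l, and 5 further copies, such as Rps12l1. The annotation listed 83 of the 89 as protein-coding and 6 as processed pseudogenes (Rps4l, Rps12l1, Rpl6l, Rpl32l, Rps3a2 and Rps3a3), so the gene type of these 6 goes against the name.

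The cells had been infected with lentivirus carrying either shETV4, a hairpin against Etv4, or shRFP, a control hairpin against red fluorescent protein. The LPC-HRas background was common to both groups, and total RNA from 1 library per group was sequenced. With no replicates, differences are given as values and none carries a test. Values are TPM, transcript abundance corrected for length and scaled to the same total in every library. Such values keep no record of how many reads lie behind them, so depth is unknown and no counting error can be stated. In bulk samples a lower level per cell and fewer cells with that level cannot be told apart.

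Etv4, the target, was at 16.2 TPM with shETV4 and 73.2 TPM with shRFP, or 4.52-fold lower. Hepatocyte markers did not bear out a differentiated liver cell: none of 6 reached 1 TPM, and Alb, the albumin gene, was at 0 in both libraries. Of 6 oncofetal and progenitor markers 4 were measured, while Afp and Epcam did not reach 1 TPM in either library. Dlk1 was at 314 and Sox9 at 45.4 TPM in the shETV4 library, against 205 and 28.0 TPM in the shRFP library. Of 3 epithelial markers 2 were measured, and all 4 mesenchymal markers were, Vim highest at 4104 TPM with shETV4 and 4324 TPM with shRFP. None of 3 endothelial markers and 1 of 3 leukocyte markers, Cd68, at 1.98 TPM with shETV4 and 1.01 TPM with shRFP, reached 1 TPM. None of the markers at 1 TPM or more in either library differed by 2-fold on the log2(TPM + 1) scale. The mesenchymal marker Acta2 came nearest, 1.92-fold lower at 655 TPM with shETV4 and 1256 TPM with shRFP. The 4 mesenchymal markers did not go 1 way. Vim and Acta2 were lower with shETV4, while Col3a1 and Col1a1 were higher. Col3a1 was at 538 TPM with shETV4 and 367.5 TPM with shRFP, and Col1a1 at 229 and 200 TPM in the same order.

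The ribosome makes protein in every cell. Its small subunit reads the messenger RNA and its large subunit joins the amino acids, and apart from the stalk proteins each ribosome holds its proteins in equal numbers. The messenger RNAs of these proteins are among the most abundant of growing cells. They typically begin with a short tract of C and T, the terminal oligopyrimidine (TOP) tract, through which the mTORC1 kinase and the RNA-binding protein LARP1 control their translation as a set. Ribosomal protein promoters often hold binding motifs of the ETS family of transcription factors, to which Etv4 belongs.

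The start regions of 9 core members are printed here to show where an ETS-type motif and a pyrimidine tract occur, and that some starts hold neither. Shown are 60 bases before to 20 bases after the annotated start, 5′ to 3′ on the gene's strand, from RefSeq on GRCm38.p6. Capitals mark the motif CCGGAAG on either strand (CTTCCGG on the other) and runs of 8 or more C or T that lie within 30 bases of the start. The first 3 are the core members with a promoter in the table and the lowest difference between the libraries. The next 3 are those with the highest difference. The last 3 are the most abundant core members with CCGGAAG inside the bases shown. With the RefSeq starts used, Rps3 and Rps19 had neither feature, and Rps6 and Rpl39 had CCGGAAG only outside the bases shown.
Rpl5, chr5:107900468-107900547, plus strand: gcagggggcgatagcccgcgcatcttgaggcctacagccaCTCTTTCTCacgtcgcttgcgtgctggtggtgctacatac
Rpl4, chr9:64173327-64173406, plus strand: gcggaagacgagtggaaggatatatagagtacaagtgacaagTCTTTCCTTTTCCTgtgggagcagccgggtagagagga
Rps6, chr4:86857348-86857427, minus strand: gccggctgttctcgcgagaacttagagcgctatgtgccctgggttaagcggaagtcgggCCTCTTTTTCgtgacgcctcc
Rps3, chr7:99483690-99483769, minus strand: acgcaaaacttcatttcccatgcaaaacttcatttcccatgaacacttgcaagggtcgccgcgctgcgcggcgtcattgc
Rps19, chr7:24884532-24884611, plus strand: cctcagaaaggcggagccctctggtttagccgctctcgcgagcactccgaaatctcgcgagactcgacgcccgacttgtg
Rpl39, chrX:37085203-37085282, minus strand: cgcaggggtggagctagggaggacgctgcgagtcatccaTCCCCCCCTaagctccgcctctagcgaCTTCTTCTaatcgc
Rpl41, chr10:128549149-128549228, minus strand: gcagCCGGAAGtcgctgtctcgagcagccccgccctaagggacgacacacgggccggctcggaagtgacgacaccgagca
Rpl19, chr11:98026650-98026729, plus strand: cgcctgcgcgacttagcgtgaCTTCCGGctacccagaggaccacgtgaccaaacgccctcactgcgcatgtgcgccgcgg
Rps10, chr17:27635225-27635304, minus strand: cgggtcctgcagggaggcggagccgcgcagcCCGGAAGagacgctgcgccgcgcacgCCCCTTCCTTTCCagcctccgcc

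A promoter of 300 bases, 250 before and 50 after the start, was found in the RefSeq table for 64 of the 89 members, 57 of them core members. The motif CCGGAAG occurred on either strand in 23 of the 57 (40.4%). Over all 27025 genes with a promoter it occurred in 9.16%, and over the 9553 that were measured in these cells in 19.5%. A run of 8 or more C or T near the start occurred in 29 of 57 (50.9%), against 22.6% of all genes and 21.1% of measured genes. The motif AANATGGCG, a YY1-type sequence, was in 5 of 57 (8.77%), against 2.52% of all and 5.68% of measured genes. TATAAA was in 5 of 57 (8.77%), against 14.2% of all and 6.99% of measured genes. These matches are descriptions of letters, not of bound sites, and annotated starts can lie away from the true ones. Annotations also differ, and the matches depend on the start used. For Rps19, on the plus strand, the bases shown begin at 24884532, while GENCODE starts the gene at 24884371. For Rps10, on the minus strand, the bases shown begin at 27635304, while GENCODE starts the gene at 27636669.

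The differences between the libraries were also set beside these letters. The 23 with CCGGAAG had a median difference of 0.08, and the 34 without it 0.04, where a difference is log2(TPM + 1) in shETV4 minus that in shRFP. Of those with the motif 7 lay below 0, and of those without it 11. Over all measured genes the medians were -0.10 with and -0.10 without the motif. Core members with the pyrimidine run had a median of 0.04 and those without it 0.07, against -0.11 and -0.10 over all measured genes. The 5 with AANATGGCG had a median of 0.26 with none below 0, and the 52 without it 0.04 with 18 below. Among all measured genes the direction was the other way, with medians of -0.14 with that motif and -0.10 without it. Core members with TATAAA had a median of 0.10 and those without it 0.05, against -0.04 and -0.10 among all measured genes. Whether any of these motifs has a part in the differences was not tested.

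The ribosomal protein genes took a large part of the messenger pool in each library. Their TPM summed to 190436 with shETV4 and 182785 with shRFP, that is 19.0% and 18.3% of each total, a ratio of 1.04. As a share of the named protein-coding genes alone the values were 21.5% with shETV4 and 20.3% with shRFP. The 7 members that did not reach 1 TPM in either library were Rpl10l, Rpl39l, Rpl6l, Rpl32l, Rps3a2 and Rps3a3, all listed at 0 in both, and Rpl3l at 0.07 TPM with shETV4 and 0 with shRFP.

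None of the 82 measured members (1 TPM or more in either library) differed by 2-fold or more, a difference of at least 1 or at most -1. Of the 12968 named genes measured in the same way 10.4% did so, with 3.39% higher and 7.06% lower in shETV4 cells. A narrower class was the 1594 abundant protein-coding genes (at least 100 TPM in 1 library or both), with 79 members in it. There the share was 4.52%, with 2.26% higher and 2.26% lower. That class is not matched in level: its median was 171 TPM in each library. The members' median was 2037 TPM with shETV4 and 2022 TPM with shRFP. None of the 78 mitochondrial ribosomal protein genes differed by 2-fold either, so this trait is not particular to the members. The members' median difference was 0.04, with quartiles at -0.11 and 0.17, against a median of -0.10 and quartiles of -0.48 and 0.21 over all measured genes. Of the members 53 lay above 0 and 29 below, while of all genes 5395 lay above and 7560 below. The SD of the differences across genes was 0.24 for the members, 0.26 for the 78 mitochondrial ribosomal protein genes (median 0.03), and 0.47 for the 1515 other abundant protein-coding genes (median -0.02). These are spreads across genes in a single pair of libraries, not errors.

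**Figure D1:**
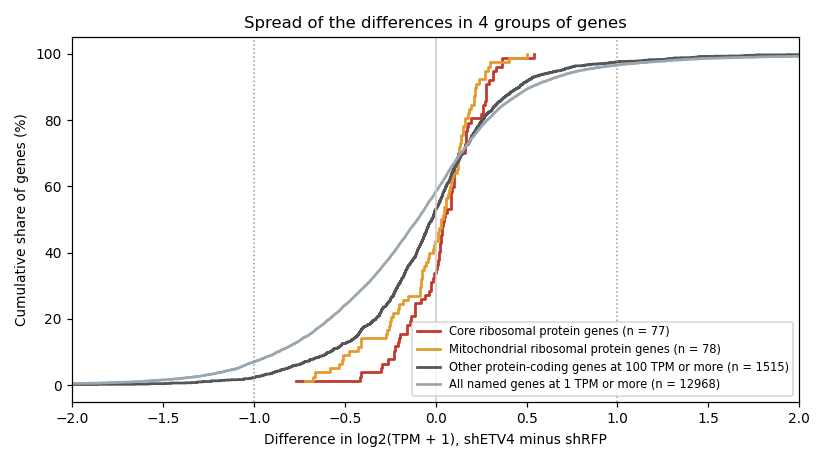
Cumulative share of genes (y axis, %) by difference in log2(TPM + 1), shETV4 minus shRFP (x axis, drawn from -2 to 2); dotted lines mark 2-fold. The curve of the 77 core ribosomal protein genes is steep and stays inside the dotted lines, from -0.77 to 0.54. That of the 78 mitochondrial ribosomal protein genes also stays inside, from -0.72 to 0.50, while 10.4% of all genes lie outside them.

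At a 1.5-fold limit 2 of the 82 members stood out, Rpl5 lower and Rps4l higher, 1 of 82 in each direction. Among all measured genes 28.6% passed that limit, 8.61% higher and 20% lower, and among the abundant protein-coding genes 15.5%, 5.96% higher and 9.54% lower. Of the 78 mitochondrial ribosomal protein genes 3 passed it, all lower. Of the 77 core members, all of which were measured, 59 lay within 1.2-fold. The share of other genes within that limit was not computed. The quartiles of the core members' differences were -0.08 and 0.17, against -0.25 and 0.20 for the abundant protein-coding genes. The order of levels was nearly kept between the libraries, with a rank correlation of 0.98 across the 77 core members, which share libraries and annotation and are given as a description.

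Levels of the core members ran from 71.3 to 8216 TPM with shETV4 and from 122 to 6598 TPM with shRFP. At the top stood Rplp1, a protein of the large-subunit stalk that recruits elongation factors, at 8216 TPM with shETV4 and 6598 TPM with shRFP. Rps2, a small-subunit protein at the messenger RNA entry, was at 6571 TPM with shETV4 and 6122 TPM with shRFP. These were the first and second in both libraries. Rpl32 was at 5192 TPM with shETV4 and 4368 TPM with shRFP. Rpl23a, which lies at the exit of the peptide tunnel, was at 4961 TPM with shETV4 and 5370 TPM with shRFP, below Rpl32 with shETV4 and above it with shRFP. Rplp0, the stalk's anchor and a common reference gene in PCR, was at 4693 TPM with shETV4 and 4601 TPM with shRFP. Rpl13 was at 4545 TPM with shETV4 and 4624 TPM with shRFP, and Rps18, another common reference gene, at 4507 and 4429 TPM in the same order. In all, 67 of 77 core members reached 1000 TPM in both libraries and 8 stayed under it in both.

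**Figure D2:**
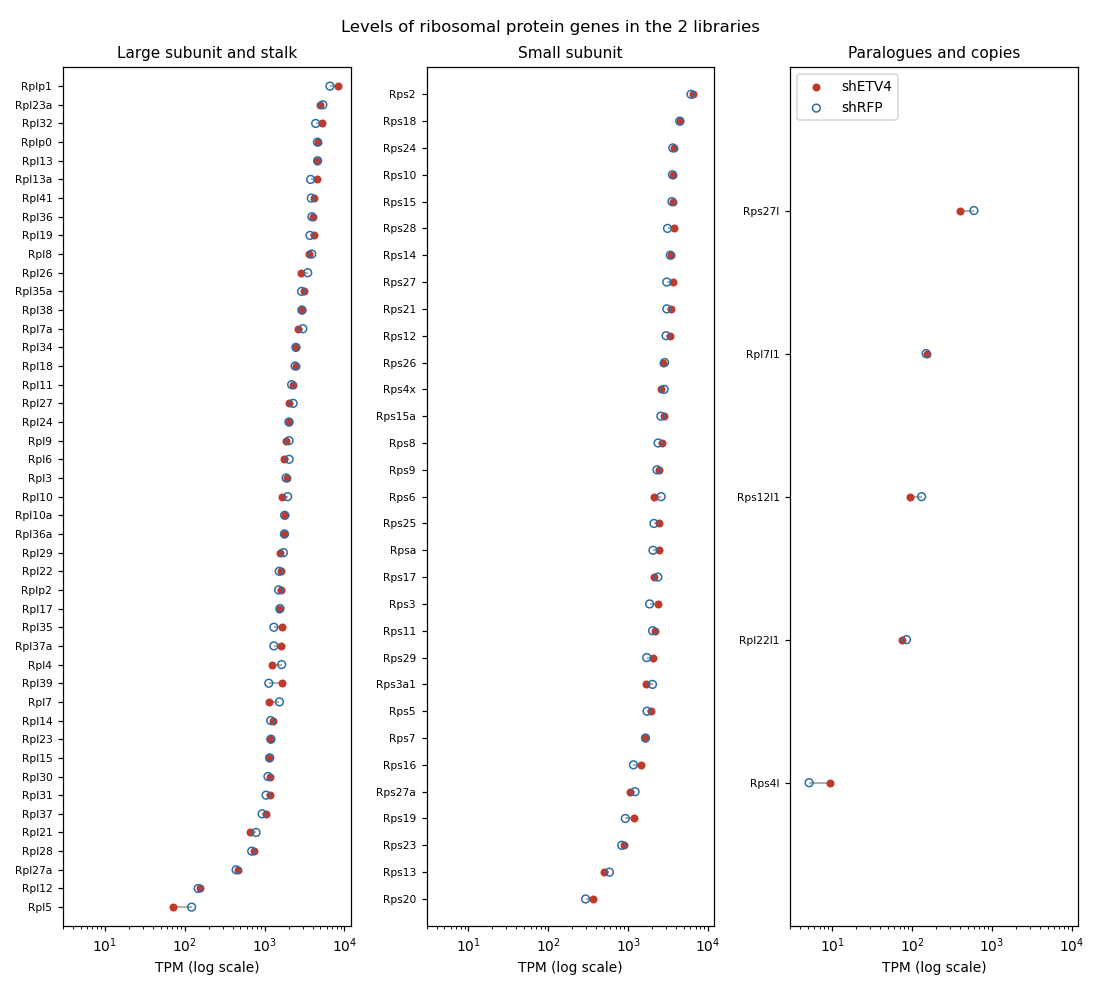
TPM (x axis, log scale) of measured ribosomal protein genes (rows, sorted by mean level), with filled red points for the shETV4 library and open blue points for the shRFP library, 1 library each. The points of most genes nearly coincide, and the widest gaps are at Rpl5, Rpl39, Rps27l and Rps4l.

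In the large subunit the 46 core members summed to 110410 TPM with shETV4 and 106957 TPM with shRFP, and in the small subunit the 31 summed to 79291 and 74857 TPM in the same order. The ratio of large to small was 1.39 with shETV4 and 1.43 with shRFP. The median difference was 0.02 for the large subunit, with 28 above and 18 below 0, and 0.10 for the small subunit, with 23 above and 8 below. Whether the subunits differ from each other was not tested.

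Among large-subunit proteins the lowest difference was that of Rpl5 (ENSMUSG00000058558, chromosome 5, 107900502 to 107909005, plus strand, GRCm38), which carries a small ribosomal RNA into the subunit and, with Rpl11, binds the p53 regulator Mdm2. It was at 71.3 TPM with shETV4 and 122 TPM with shRFP, 1.71-fold lower and a difference of -0.77. After the trend with GC content over all genes was subtracted, that difference was -0.17. Its partner Rpl11 was at 2262 TPM with shETV4 and 2186 TPM with shRFP, a difference of 0.05. Rpl23, which also binds Mdm2, was at 1180 TPM with shETV4 and 1204 TPM with shRFP. After GC adjustment Rpl11 was at -0.01 and Rpl23 at -0.09, so the direction of Rpl11 turned.

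Rpl4, which lines the peptide tunnel, was at 1231 TPM with shETV4 and 1641 TPM with shRFP. Rpl7 was at 1153 TPM with shETV4 and 1538 TPM with shRFP. Both were 1.33-fold lower, and both were near the GC trend, at -0.14 and -0.03 once it was subtracted. Rpl26, which in human cells has been tied to p53 translation, was at 2823 TPM with shETV4 and 3472 TPM with shRFP, with a GC-adjusted difference of -0.29. Rpl21 was at 668 TPM with shETV4 and 784 TPM with shRFP, and Rpl10, which completes the large subunit late in its assembly, at 1664 and 1947 TPM in the same order. With the GC trend subtracted Rpl21 lay at 0.03 and Rpl10 at -0.03, so the direction of Rpl21 turned. It turned also with the near-identical records described further on added, from -0.23 to 0.12. Those records of Rpl21 summed to 781 TPM with shETV4 and 547 TPM with shRFP. Most of that was 1 record, Gm28900, identical to Rpl21 over 153 bases, at 553 TPM with shETV4 and 337 TPM with shRFP. Without Gm28900 the sum of Rpl21 and its records was still lower with shETV4. Rpl10 went from -0.23 to -0.10 with its own near-identical records added.

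The highest difference of the core members was that of Rpl39 (ENSMUSG00000079641, chromosome X, 37082520 to 37085402, minus strand), a very small protein of the tunnel wall. It was at 1648 TPM with shETV4 and 1132 TPM with shRFP, 1.46-fold higher, a difference of 0.54 that became 0.73 after the GC trend was subtracted. Rpl35 was at 1651 TPM with shETV4 and 1310 TPM with shRFP, and Rpl37a at 1586 and 1309 TPM in the same order. Rpl13a, which in human cells also serves in interferon-gamma-dependent translational control, was at 4570 TPM with shETV4 and 3776 TPM with shRFP, a difference of 0.28. After GC adjustment Rpl35 was at 0.19, Rpl37a at 0.34 and Rpl13a at 0.16. The stalk proteins Rplp1 and Rplp2 had differences of 0.32 and 0.10, or 0.18 and 0.04 after GC adjustment, Rplp2 at 1613 TPM with shETV4 and 1503 TPM with shRFP.

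In the small subunit the lowest difference was -0.30, that of Rps6, the main substrate of the S6 kinases below mTORC1, at 2101 TPM with shETV4 and 2590 TPM with shRFP. Rps3a1 was at 1679 TPM with shETV4 and 2018 TPM with shRFP, and Rps27a, made as a fusion with ubiquitin, at 1061 and 1220 TPM in the same order. Rps6 had a difference of -0.31 after GC adjustment, but of -0.17 with the near-identical records described further on added to it, above Rps3a1 at -0.27 on that scale. The difference of Rps3a1 was -0.27 and turned to 0.01 after GC adjustment, and that of Rps27a, -0.20, came to just above 0. The highest differences before GC adjustment were those of Rps19 and Rps3. Rps19, the gene most often mutated in human Diamond-Blackfan anaemia, was at 1190 TPM with shETV4 and 923 TPM with shRFP, a difference of 0.37. Rps3, a protein of the messenger RNA entry that also acts in DNA repair, was at 2391 TPM with shETV4 and 1857 TPM with shRFP, a difference of 0.36. Rps16, Rps20, Rps29 and Rps28 followed at 0.32, 0.29, 0.28 and 0.27. The order depended on the processing: after GC adjustment Rps20 was at 0.54, Rps3 at 0.53 and Rps19 at 0.21. With near-identical records added, Rps29 was at 0.06 and Rps28 at 0.14. Rpsa, known also as the laminin receptor, was at 2453 TPM with shETV4 and 2048 TPM with shRFP.

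Differences varied with base composition and length among the core members. Their rank correlation with transcript GC content was 0.28 across 77 genes, against 0.52 across 12947 measured genes with a GC value. Of the 19 core members with the lowest GC content (up to 48.6%) 13 lay below 0, with a median of -0.12. Of the 19 with the highest (55.0% or more) 2 lay below 0, with a median of 0.04. With transcript length the rank correlation of the core members was -0.40, and its value over all measured genes was not computed. Of all 77 core members 51 lay above 0. Of the 19 with the shortest transcripts (up to 536 bases) 17 lay above 0, with a median of 0.10, while 8 of the 19 with the longest (769.5 bases or more) did, with a median of -0.04. These correlations are descriptions across genes of the same pair of libraries, and what part base composition or length has in any difference was not tested. Several members of low GC content lay above the trend of all genes, among them Rpl30, Rps15a, Rps25 and Rps23, at adjusted differences of 0.56, 0.49, 0.48 and 0.47; these were named after their values were seen.

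**Figure D3:**
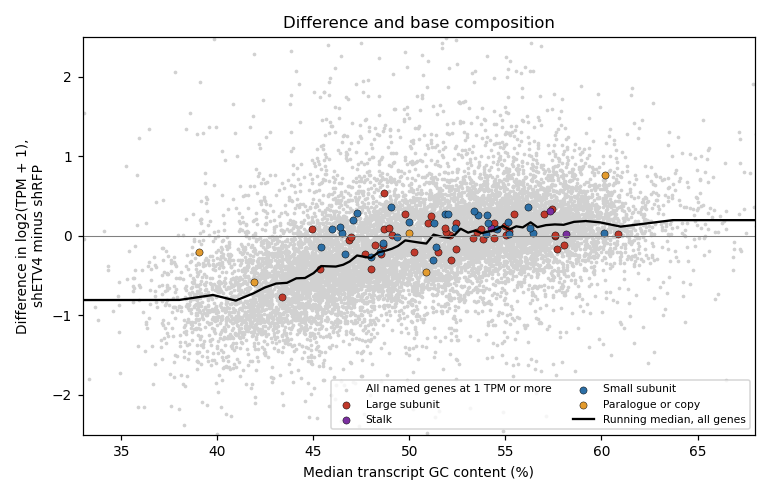
Difference in log2(TPM + 1), shETV4 minus shRFP (y axis, drawn to 2.5 either side of 0), by median transcript GC content (x axis, %, drawn from 33 to 68), for ribosomal protein genes by role (coloured points) and all measured named genes (grey points), with the running median of all genes as a black line. The running median is low at low GC content, where Rpl5 and Rps27l lie, and most ribosomal protein genes lie within 0.4 of 0.

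Near-identical records held part of the signal of many members. Ribosomal protein genes have left many processed copies in the mouse genome. A search of the annotated transcripts found 129 measured records that copy a member and are not members themselves. They match at 90% identity or more over at least 80% of their length. Of these 120 were annotated as pseudogenes. Together the 129 held 36298 TPM with shETV4 and 36365 TPM with shRFP, 3.63% and 3.64% of the totals. Copies were found for 58 members, and for 11 core members a single copy stood above the member itself in both libraries. The sources used here do not say how reads were divided between a member and its copies, so the level of such a member is uncertain.

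The lowest core levels were among these. Rpl5 was at the 71.3 TPM with shETV4 and 122 TPM with shRFP given above, while Gm15500, identical to it over 1018 bases, was at 1344 TPM with shETV4 and 1812 TPM with shRFP. Member and copy together came to 1416 TPM with shETV4 and 1935 TPM with shRFP, and the difference of -0.77 became -0.45. Rpl12, which sits at the base of the stalk, was at 154 TPM with shETV4 and 148 TPM with shRFP, and its copy Gm10275 at 4296 and 4321 TPM in the same order. Rpl27a was at 468 TPM with shETV4 and 441 TPM with shRFP, and its copy Gm7536 at 3243 and 3331 TPM in the same order. Rps20 was at 360 TPM with shETV4 and 293 TPM with shRFP, and its copy Gm4332, 99.7% identical, at 745 and 591 TPM in the same order. The highest copy was Gm10443, identical to Rps28 over 210 bases, at 7858 TPM with shETV4 and 7400 TPM with shRFP. Rpl10-ps3, annotated as protein-coding, was at 2606 TPM with shETV4 and 2640 TPM with shRFP and stood above Rpl10.

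With copies added to their parents the core levels were more even. Copies that were members themselves, such as Rps12l1, were not added. TPM is corrected for length, so short copies weigh heavily in such sums. The highest sum was that of Rps28, most of it from Gm10443. The lowest became 1082 TPM with shETV4 and 884 TPM with shRFP, and 75 of 77 members reached 1000 TPM in both libraries. The span from lowest to highest narrowed to 10.7-fold with shETV4 and 11.9-fold with shRFP. Counted by single records it was 115-fold with shETV4 and 54.0-fold with shRFP. No core member then differed by 1.5-fold or more, with differences from -0.45 (Rpl5) to 0.51 (Rpl39) and a median of 0.04.

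**Figure D4:**
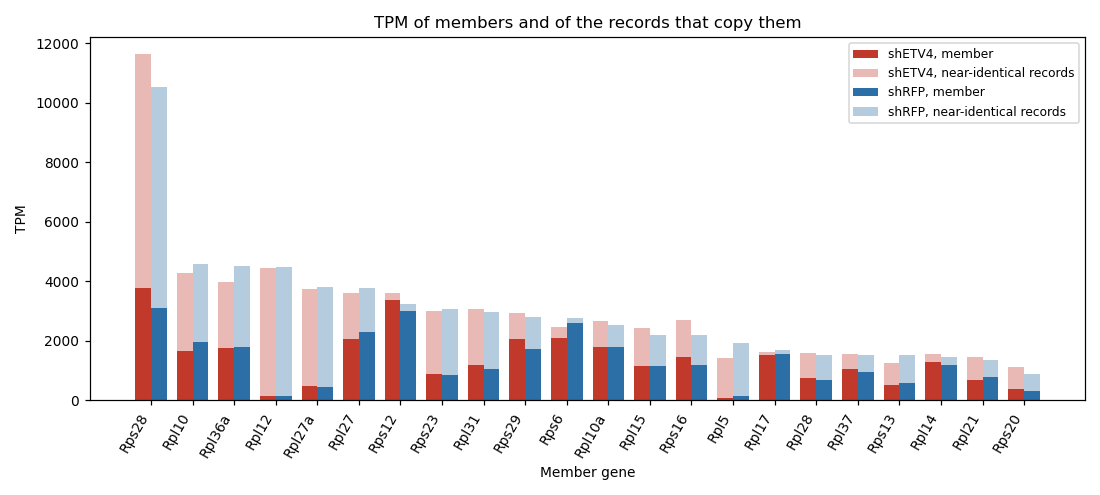
TPM (y axis) of the 22 members whose near-identical records sum to 100 TPM or more in either library, with the member in full colour and its copies in pale colour stacked above it, red for shETV4 and blue for shRFP, 1 library each. For Rpl12, Rpl27a and Rpl5 nearly all of the bar is pale, and the heights of the pairs are close except at Rpl5, Rps28 and a few others.

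Paralogues of ribosomal proteins can replace their parent protein in some tissues. Rps27l (ENSMUSG00000036781, chromosome 9, 66946086 to 66949516, plus strand), a p53-inducible relative of Rps27, was at 401 TPM with shETV4 and 597 TPM with shRFP, 1.49-fold lower. Rps27 was at 3654 TPM with shETV4 and 3046 TPM with shRFP. The paralogue's level was thus 11.0% of its parent's with shETV4 and 19.6% with shRFP. Rps27l has a GC content of 41.9% and its difference of -0.57 turned to 0.14 once the GC trend was subtracted, so its direction depends on that step. A stretch of 60 bases of both coding sequences shows where the pair differs. They are 76.4% identical over 254 aligned bases, and in the stretch printed 12 of 60 bases differ, marked by capitals.
Rps27l: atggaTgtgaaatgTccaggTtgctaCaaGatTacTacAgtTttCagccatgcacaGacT
Rps27: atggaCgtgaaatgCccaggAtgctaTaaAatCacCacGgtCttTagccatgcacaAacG

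Rpl22l1, which in mice is repressed by its parent Rpl22, was at 74.2 TPM with shETV4 and 85.5 TPM with shRFP, 4.56% and 5.59% of Rpl22. Rpl22 itself was at 1628 TPM with shETV4 and 1530 TPM with shRFP. The difference of Rpl22l1 was -0.20 and turned to 0.57 after GC adjustment. Rpl7l1 was at 155 TPM with shETV4 and 151 TPM with shRFP, 13.4% and 9.80% of Rpl7, whose own level was lower with shETV4. Rps12l1, identical to Rps12 over 399 bases, was at 96.0 TPM with shETV4 and 132 TPM with shRFP, and Rps12 at 3362 and 2984 TPM in the same order. Rps4l, a transcribed processed pseudogene 79.8% identical to Rps4x over 792 bases, had the highest difference of the measured members, 0.77, at 9.53 TPM with shETV4 and 5.17 TPM with shRFP. At so low a level the value depends on the pseudocount, and with 5 TPM added in place of 1 it was 0.51, below Rpl39 at 0.54 and inside 1.5-fold. Its parent Rps4x was at 2565 TPM with shETV4 and 2824 TPM with shRFP, so Rps4l held under 1% of its parent's level in both. The paralogues of other tissues were absent or nearly so: Rpl10l and Rpl39l, known from testis, were listed at 0, and Rpl3l, known from heart and skeletal muscle, stood at most at 0.07 TPM beside Rpl3 at 1926 TPM with shETV4 and 1866 TPM with shRFP. Rpl10 and Rpl39, the parents of the testis genes, had 1664 and 1648 TPM with shETV4.

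**Figure D5:**
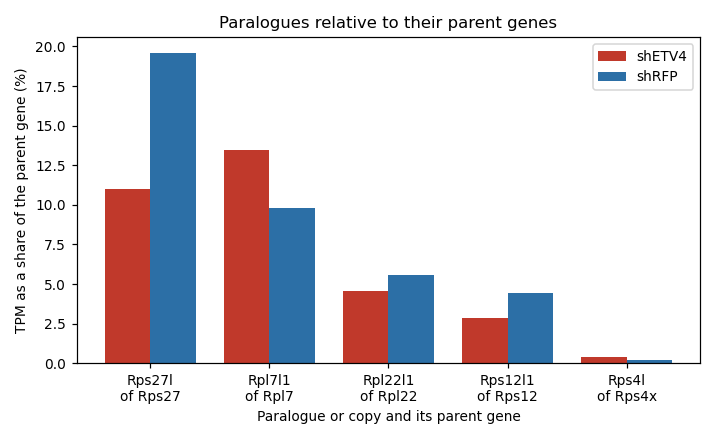
TPM of each measured paralogue or copy as a share of its parent gene (y axis, %), red for shETV4 and blue for shRFP, 1 library each. Rps27l stands at 11.0% with shETV4 and 19.6% with shRFP, Rpl7l1 at 13.4% and 9.80%, and Rps4l below 1% in both.

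Other genes of the ribosome and its supply were set beside the members, by lists chosen for role. Over all 12968 measured genes 3.39% were higher and 7.06% lower past 2-fold, the median difference was -0.10 and 7560 lay below 0, and the counts of these short lists are to be read against those values. None of the 4 proteins of the ribosome outside the symbol rule passed 2-fold, and their median was 0.14. Fau, which encodes a small-subunit protein fused to a ubiquitin-like protein, was at 2258 TPM with shETV4 and 2028 TPM with shRFP. Rack1, a scaffold on the small subunit, was at 2415 TPM with shETV4 and 2202 TPM with shRFP. Of 18 other TOP messenger RNAs 1 was lower past 2-fold and none higher, with a median of -0.08. That was Npm1, a nucleolar chaperone, at 592 TPM with shETV4 and 1399 TPM with shRFP, inside 2-fold after GC adjustment (-0.54). The elongation factor genes Eef1a1 and Eef2 were at 8080 and 1860 TPM with shETV4, against 9191 and 1847 TPM with shRFP.

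Among 15 genes of mTORC1 and LARP1 signalling 1 was lower and none higher, with a median of -0.23. It was Larp4, which binds poly(A) tails, at 6.49 TPM with shETV4 and 18.9 TPM with shRFP, inside 2-fold after GC adjustment (-0.61). Larp1, which binds the TOP tract, was at 74.5 TPM with shETV4 and 112 TPM with shRFP. Of 17 genes for chaperones, importers and assembly factors that handle ribosomal proteins, 2 were lower and none higher. Their median was -0.56, or -0.30 with the GC trend subtracted, and 14 lay below 0. Ipo7, an importin that carries ribosomal proteins, was at 11.2 TPM with shETV4 and 34.8 TPM with shRFP. Mdn1, the large ATPase of large-subunit assembly, was at 5.91 TPM with shETV4 and 19.0 TPM with shRFP. Both came to less than 2-fold after GC adjustment, Ipo7 at -0.78 and Mdn1 only just inside the limit.

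None of 15 genes of RNA polymerases I and III, which make ribosomal RNA, differed by 2-fold, and their median was -0.10. Of 9 genes around Mdm2 and p53, Cdkn1a, a p53 target that arrests the cell cycle, was higher at 11.9 TPM with shETV4 and 2.25 TPM with shRFP, also after GC adjustment (1.91). Mdm4 was lower at 7.45 TPM with shETV4 and 16.7 TPM with shRFP, and after GC adjustment at -0.47. Mdm2 itself was at 14.5 TPM with shETV4 and 21.4 TPM with shRFP, a difference of -0.54. Ccng1 had a difference of -0.81, Bax of 0.22 and Bbc3 of 0.36. After GC adjustment Mdm2 was at -0.16, Ccng1 at 0, Bax at 0.03 and Bbc3 at 0.16. Of the 9 genes 5 lay below 0, and whether p53 activity differed was not tested. The list had a median of -0.10, and the other 7 genes lay within 2-fold.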

How the data were processed

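Total RNA of 2 libraries, 1 with shETV4 and 1 with shRFP, was made into TruSeq libraries, per the labels' protocols, and groups follow the treatment label. The authors deposited 1 TPM value per gene and library; the unit was read from the totals, 999870 with shETV4 and 1e+06 with shRFP, since the headers name none. HISAT2, RSEM and build GRCm38.p4 are named without roles in the submitters' processing notes; the sources used here do not give the annotation, strand setting or filters. Since TPM is relative to each library's sum, a gain in some RNAs lowers the rest, and no count, interval or floor can be given.

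Differences were log2(TPM + 1), shETV4 minus shRFP, for named genes reaching 1 TPM in at least 1 library, with 2-fold as the threshold for a call and no test. The 153 records without a symbol were left out of counts. GENCODE M21 (GRCm38) gave gene type, coordinates, GC content and length (medians over transcripts) for all 89 members; RefSeq gave promoters, 1 start per gene, the one nearest GENCODE's. Copies were sought with BLAST+ 2.17.0 (90% identity, 80% of the copy's transcript and at least 100 bases aligned). Paralogue identity was computed from transcripts in place of the proteins first planned. The GC trend is the running median over 50 bins. The steps ran in Python 3.11.15 (scipy 1.17.1, pandas 2.3.3, numpy 2.4.6), with figures made in matplotlib 3.10.9. The differences, the 2-fold call, the GC trend and the scales were tested on simulated data. The changes planted there were larger than those of any member. The copy search, sums with copies, promoter motifs and paralogue alignments were not tested in that way.

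Named genes were the 10 members highest and the 10 lowest by difference, the 8 highest and 8 lowest by level, paralogues with their parents, a set of members with known roles, and list genes past 2-fold; others, and the copies, were named after their values were seen. Some genes that the rule or lists hold are counted in the sums and medians but not reported here by name. Members, lists and rules were chosen with earlier results of these data known. Alternatives changed the pseudocount, filter, scale, threshold, GC adjustment, summary and membership; adding copies and leaving out pseudogene members were added after the data were seen.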

Additional observations from a re-analysis of the deposited data

How the results depend on the processing

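With 1 library per group nothing could be left out, and depth is unknown, so counting error could not be set beside any value. The members' median difference of 0.04 lay between 0.03 (no filter, or the mean in its place) and 0.12 (trimmed mean of log ratios set to 0) under the pseudocounts, filters, scales, GC adjustment and membership tried, and the log2 ratio of their summed TPM, 0.06, between 0.05 and 0.08. No measured member passed 2-fold under any of these; at a 1.5-fold threshold 1 was higher and 1 lower, the higher one, Rps4l, inside 1.5-fold with a pseudocount of 5. Of 44 named members, the sign of the difference changed for 12 of the 41 with a value when the GC trend was subtracted, for 5 relative to the members' own sum, for 3 with copies added and for 2 on each other scale; the cause was not tested. No paired analysis was possible because each group has 1 library.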

Other observations

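Introns of ribosomal protein genes often hold small nucleolar RNA genes, which guide the modification of ribosomal RNA. The annotation places 58 of them inside 30 members on the same strand. Of these 56 were listed at 0 TPM in both libraries. The other 2 were Snora64, inside Rps2, at 22.4 TPM with shETV4 and listed at 0 with shRFP, and Gm26205, inside Rpl6, at 41.4 TPM with shETV4 and listed at 0 with shRFP. TPM is corrected for length and these RNAs are small. How many reads lie behind the 2 values is unknown, so neither can be read as a gain. A listing at 0 does not show that an RNA is absent. The 30 core members with such genes inside had a median difference of 0.08, and the 47 without a median of 0.03.

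Core members lie on 19 chromosomes, 14 of them on chromosome 7. Of those 14 members 12 lay above 0, with a median difference of 0.10 and a median GC content of 54.0%. All 6 on chromosome 17 lay above 0, Rpl10a only just, with a median of 0.03 and a GC content of 56.4%. After GC adjustment Rps28 was at 0.29. Rpl10a, Rps10, Rpl36, Rps2 and Rps18 then lay below 0, at -0.14, -0.11, -0.10, -0.06 and -0.02. The share of all genes above 0 on each chromosome was not computed, and whether position has a part was not tested. On chromosome 5, with a median GC content of 48.2%, 1 of 5 lay above 0, and on chromosome 11, at 52.4%, 2 of 7 did.

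Of the records that copy Rpl27, Rpl27-ps3 and Gm11518 carried the same values, 773 TPM with shETV4 and 734 TPM with shRFP. Rps6-ps4, identical to Rps6 over 750 bases, was at 357 TPM with shETV4 and 184 TPM with shRFP, while Rps6 had the lower level with shETV4. Rps13-ps2, identical to Rps13 over 453 bases, was at 113 TPM with shETV4 and 257 TPM with shRFP.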
